A study of Mus musculus with 9 samples.

Results

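The genes described here are 8 that set the activity of SREBP2, the transcription factor that switches on cholesterol synthesis and lipoprotein uptake, or act beside it in cholesterol handling. They were taken by symbol (Srebf2, Scap, Insig1, Insig2, Mbtps1, Mbtps2, Mylip and Stard4) from a table of 51810 genes, and all 8 were found in it. The table gives RNA sequencing of interstitial cells grown from mouse heart valves (aortic and mitral, strain C57BL/6J), which are the resident fibroblasts of the leaflets. There were 3 libraries each of cells given buffer (Control, which 1 label calls untreated), LDL (the particle that carries most plasma cholesterol) or its oxidised form (oxLDL), the lipoproteins at 50 ug/mL, for 24 h. All of the cells, Control included, grew in DMEM with 10% FBS, which carries lipoproteins of its own, with insulin at 5 ug/mL, and with the growth factors EGF at 2 ng/mL and bFGF at 0.5 ng/mL. The age and sex of the mice and the number of animals pooled are not given in the sources used here, and it is not said that the libraries of a treatment came from separate cultures, so the p-values measure the spread between these libraries, which may be technical.

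SREBP2 is made as a precursor that lies in the membrane of the endoplasmic reticulum, bound to the escort protein SCAP. When sterols are scarce, SCAP carries it in COPII vesicles to the Golgi, where the site-1 protease (MBTPS1) and then the site-2 protease (MBTPS2) cut it and free the part that enters the nucleus. When sterols are plentiful, INSIG1 and INSIG2 hold SCAP back, and the cut does not occur. SREBP2 binds sterol regulatory elements beside CCAAT boxes, and Srebf2 and Insig1 are themselves known targets of this arm. MYLIP is a ubiquitin ligase, induced by the oxysterol receptors LXR, that marks lipoprotein receptors for breakdown, and STARD4 moves cholesterol between membranes inside the cell.

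Promoter windows for 7 of the 8 genes were found in the RefSeq table of GRCm38.p6, and Stard4 was not matched. They are shown for Srebf2 and Insig1, whose levels fell together with LDL, and for Insig2, the paralog of Insig1 that did not pass the test. Insig2 has 3 RefSeq starts, and the window shown is that of the start farthest upstream. Which start these cells use was not tested. Each sequence runs 5′ to 3′ on the strand of the gene and ends just before the first base of the gene in the GENCODE M21 annotation. Capitals mark matches to 3 motifs searched on both strands: TCACNCCA, a core of the sterol regulatory element, CCAAT, the box bound by NF-Y, and CACGTG, an E-box that SREBP proteins can bind. A CCAAT box on the opposite strand is read here as ATTGG.
Srebf2 (chr15:82147019-82147180, plus strand): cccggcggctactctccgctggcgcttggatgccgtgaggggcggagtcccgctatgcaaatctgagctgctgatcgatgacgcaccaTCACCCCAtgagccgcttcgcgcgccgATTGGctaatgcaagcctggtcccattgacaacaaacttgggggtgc
Insig1 (chr5:28071162-28071362, plus strand): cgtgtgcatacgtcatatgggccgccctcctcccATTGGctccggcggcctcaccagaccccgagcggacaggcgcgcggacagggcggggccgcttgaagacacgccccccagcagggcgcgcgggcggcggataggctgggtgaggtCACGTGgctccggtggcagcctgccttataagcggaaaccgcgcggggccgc
Insig2 (chr1:121332590-121332839, minus strand): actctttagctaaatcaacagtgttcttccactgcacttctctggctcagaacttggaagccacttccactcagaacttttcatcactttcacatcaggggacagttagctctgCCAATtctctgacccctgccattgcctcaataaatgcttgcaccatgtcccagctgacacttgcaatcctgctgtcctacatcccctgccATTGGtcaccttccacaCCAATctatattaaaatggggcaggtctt

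In the 250 bases before the RefSeq start, Srebf2 was the 1 of the 7 matched genes with a TCACNCCA match, which begins 162 bases before that start and is followed by a CCAAT match at 135 bases. A TCACNCCA match was present in 3.67% of the 32851 windows of that length in the table, and its 9-letter extension TCACNCCAC, present in 1.05%, was found in none of the 7 genes. The 7 genes have 10 windows, since Insig2 has 3 and Scap 2. CCAAT lay in 33.8% of all windows and in 4 of these 10, 1 each of Srebf2, Insig1, Insig2 and Mylip, including Insig1 at 216 bases, Insig2 at 3 places and Mylip at 3 places. CACGTG lay in 6.02% of all windows and in 2 of the 10, that of Insig1 at 101 bases and 1 of the 2 of Scap. The GC box GGGCGG lay in 32.7% of all windows and in 7 of the 10, among them 2 of the 3 windows of Insig2 and 1 of the 2 of Scap. These matches describe letters in a window and are not measured binding sites. Only these letter patterns in 250 bases were searched, so a gene without a match is not shown to lack the element.

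Levels are in TPM, which corrects for gene length, so the genes can be compared with each other, but only roughly. Other differences between genes in how reads are gained and assigned were not tested. TPM keeps no depth, so the number of reads behind a value is unknown and no counting error can be given. All 10 valve fibroblast markers were present in all 9 libraries, from Postn (41.86 to 172.89 TPM) and Pdgfra (145.97 to 193.05 TPM) to Vim (4749.46 to 6523.44 TPM) and S100a4 (7061.23 to 9882.83 TPM). Of these 10, 7 had a lower and 3 a higher mean in LDL than in Control libraries (median log2 difference -0.06), and 0 passed by limma, with 1 at an unadjusted p under 0.05. Markers of other cells were present too: the summed level of 12 macrophage and leukocyte markers was 230.9 to 485.8 TPM in Control, 235.4 to 759.8 TPM with LDL and 102 to 762.8 TPM with oxLDL, none of them listed at 0 in every library. That of 10 endothelial markers was 225.4 to 491.1 TPM in Control, 227.7 to 520.9 TPM with LDL and 219.9 to 497.1 TPM with oxLDL. In mixed cultures read as bulk RNA, fewer cells of a type and less RNA per cell cannot be told apart, and the part of these cells in the results was not tested. Their summed levels overlapped between the 3 treatments. By single genes, 12 of 12 macrophage and leukocyte markers had a higher mean with LDL than in Control (median log2 difference 0.30) and 12 of 12 a lower mean with oxLDL than with LDL (median -0.26), but 0 passed by limma in either comparison, and 0 had an unadjusted p under 0.05. Of the 10 endothelial markers, 8 had a mean below that of Control when LDL was given (median -0.16), and 0 passed in limma or had an unadjusted p under 0.05. Of 8 cardiomyocyte markers, 1 averaged 1 TPM or more (Tnnt2, 9.59 to 63.04 TPM).

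All 8 genes were expressed in every library. In Control, Mbtps1 had the highest mean, 75.01 ± 2.06 TPM (SD, n = 3), higher than 83.1% of the 13495 genes tested. It was followed by Insig1 at 57.13 ± 18.5, Srebf2 at 47.71 ± 6.05, Scap at 41.89 ± 2.81 and Insig2 at 41.29 ± 0.63 TPM, and from Mbtps1 to Insig2 each neighbour in this order overlapped the next between libraries. Stard4 at 25.55 ± 3.19 and Mbtps2 at 22.07 ± 4.47 TPM lay below these and overlapped each other. Mylip was far lower, at 4.82 ± 0.55 TPM, higher than 21.3% of the genes tested. With LDL the order was Mbtps1, Scap, Insig2, Srebf2, Mbtps2, Insig1, Stard4 and Mylip: Insig1 went from the second place to the sixth and Srebf2 from the third to the fourth. Here Scap overlapped Insig2, Srebf2 overlapped Mbtps2 and Mbtps2 overlapped Insig1, and the other neighbours were apart. With oxLDL it was Mbtps1, Scap, Insig2, Srebf2, Insig1, Mbtps2, Stard4 and Mylip, in which Scap overlapped Insig2, Insig2 overlapped Srebf2 and Srebf2 overlapped Insig1.

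**Figure D1:**
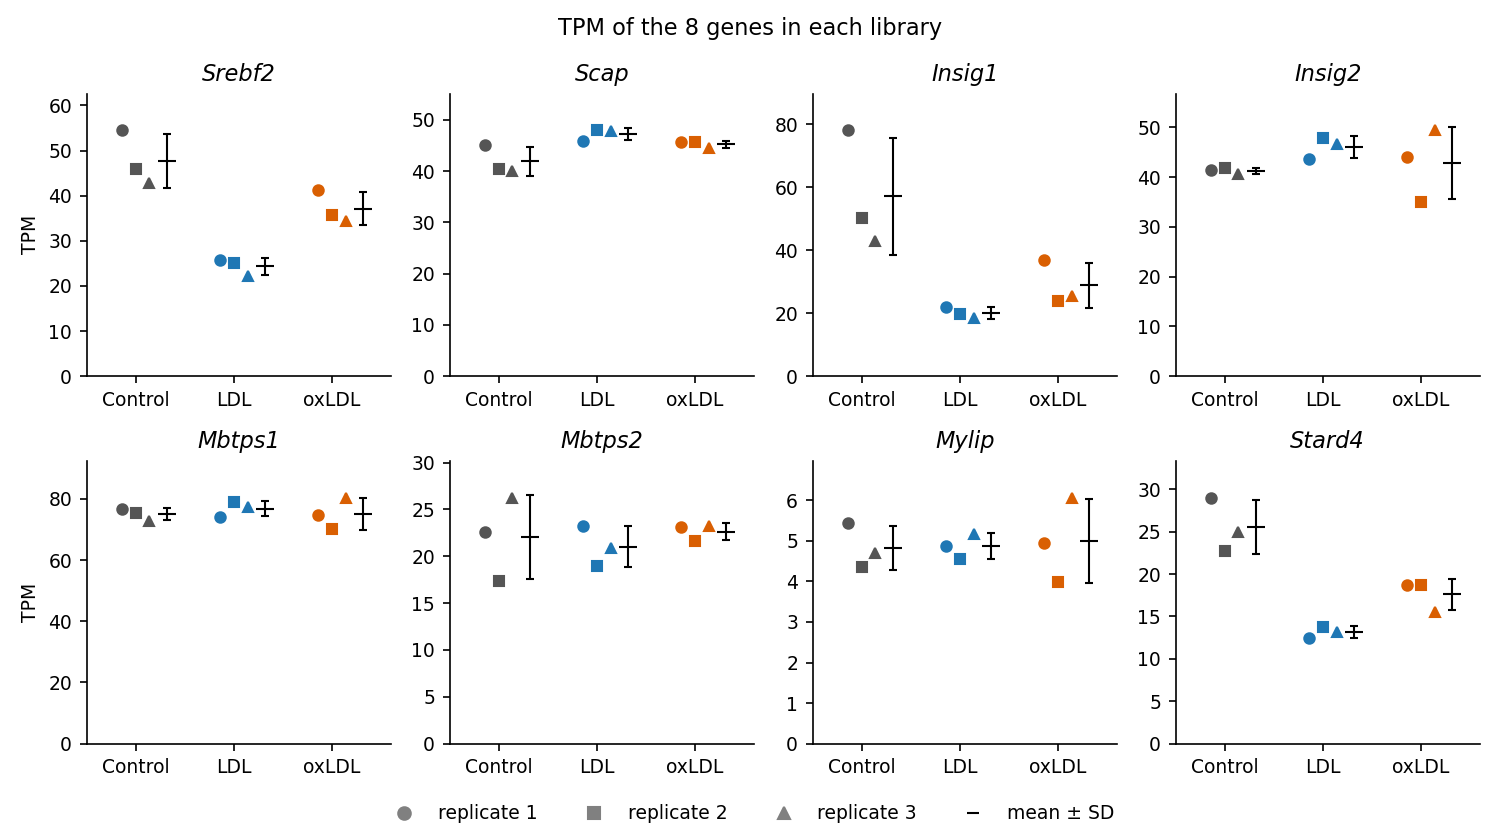
TPM of each of the 8 genes in each library, by treatment, on linear axes that start at 0. Symbols give the replicate number, and the black mark to the right of each group its mean ± SD (n = 3). Srebf2, Insig1 and Stard4 were highest in Control, lower with oxLDL and lowest with LDL, with no overlap between treatments, while the treatments of the other 5 genes lie close together and, in most, overlap.

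The comparison of LDL with Control asks how the native lipoprotein changes transcript levels. Of the 8 genes, 3 fell with LDL (Srebf2, Insig1 and Stard4), beside 0.156% of all genes tested that fell (21 of 13495) and 0.333% that passed in either direction. The same 3 fell with the replicate number as a block, where 0.852% of all genes passed. Groups without overlap, LDL below Control, were found for these 3 and for 5.06% of all genes. In the other direction they were found for 2 of the 8, Scap and Insig2, and for 5.61% of all genes. The 8 genes were chosen with earlier results of these data known, so these shares describe them and are not a test of the set. The other 5 genes did not pass, Scap among them with an unadjusted p under 0.05, which 4 of the 8 and 6.65% of all genes had. Their log2 differences lay between -0.05 and 0.17, and the median over all 8 was -0.02, beside -0.002 over all genes. Tests were made with limma on log2(TPM + 1) across all genes, two-sided, and adjusted p-values are by Benjamini-Hochberg over all 13495 genes that averaged 1 TPM or more, with 0.05 as the threshold. Each called gene failed that threshold when some single libraries were left out, as given with each gene.

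Srebf2, which encodes SREBP2 itself, lies on chromosome 15 from 82147181 to 82205379 (GRCm38, plus strand). It was measured at 54.47, 45.87 and 42.8 TPM in Control 1, 2 and 3, and at 25.8, 25.08 and 22.22 TPM in LDL 1, 2 and 3. Every LDL library lay below every Control library. The mean was 1.96-fold lower with LDL, at 24.37 ± 1.89 against 47.71 ± 6.05 TPM (SD, n = 3). The log2 change was -0.94 (95% CI -1.19 to -0.69, limma adjusted p = 0.0171). The adjusted p was 0.053, 0.0607, 0.0865 and 0.0885 without Control 1, Control 2, LDL 2 or LDL 3 and 0.0595 in a fit of the 6 compared libraries, and it was 0.000849 with the replicate number as a block. The call was kept in 13 of 18 alternatives.

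Insig1, which holds SCAP in the endoplasmic reticulum, lies on chromosome 5 from 28071363 to 28078662 (plus strand). It was measured at 78.13, 50.17 and 43.09 TPM in Control 1, 2 and 3, and at 21.94, 19.77 and 18.35 TPM in LDL 1, 2 and 3. Control 1 stood well above the other Control libraries, and all 3 LDL libraries lay below all 3 of Control. The mean was 2.85-fold lower, at 20.02 ± 1.81 against 57.13 ± 18.5 TPM (SD, n = 3). The log2 change was -1.43 (95% CI -1.93 to -0.92, limma adjusted p = 0.0429), the largest of the 8 genes and the one closest to the threshold. The call was kept in 4 of 18 alternatives. The adjusted p was 0.0995, 0.124 and 0.0511 without Control 1, 2 or 3, 0.103, 0.175 and 0.24 without LDL 1, 2 or 3, and 0.0698 and 0.0859 without oxLDL 2 or 3. It was 0.0684 with median-ratio scaling of the libraries, 0.0866 with quantile normalization, 0.127 with no filter on low genes, 0.0518 with a pseudocount of 5, 0.0667 without the mean trend of the prior and 0.111 in the 6 compared libraries, and 0.00402 with the replicate block. The log2 change was between -1.60 and -1.18 in all of these.

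Stard4, the cholesterol carrier, lies on chromosome 18 from 33199355 to 33213862 (minus strand). It was measured at 28.99, 22.69 and 24.97 TPM in Control 1, 2 and 3, and at 12.47, 13.8 and 13.22 TPM in LDL 1, 2 and 3. The LDL libraries were close together and all lay below Control. The mean was 1.94-fold lower, at 13.16 ± 0.67 against 25.55 ± 3.19 TPM (SD, n = 3). The log2 change was -0.90 (95% CI -1.15 to -0.65, limma adjusted p = 0.019). The adjusted p was 0.0737 and 0.0511 without Control 1 or 3, 0.0638, 0.0872 and 0.0951 without LDL 1, 2 or 3, and 0.0595 in the 6 compared libraries. The call was kept in 12 of 18 alternatives, the replicate block among them (adjusted p = 0.0144).

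Insig2, the paralog of Insig1 (chromosome 1, 121304353 to 121332589, minus strand), shares its role in holding SCAP. It was measured at 41.51, 41.78 and 40.58 TPM in Control 1, 2 and 3, and at 43.72, 47.86 and 46.67 TPM in LDL 1, 2 and 3. All LDL libraries lay slightly above Control, and 5.61% of all genes tested had groups without overlap in that direction. The log2 difference of 0.15 (95% CI -0.10 to 0.41) did not pass (limma adjusted p = 0.974). Within each library, the ratio of Insig1 to Insig2 was 1.88, 1.2 and 1.06 in Control 1, 2 and 3, and 0.502, 0.413 and 0.393 in LDL 1, 2 and 3. By TPM, the more abundant of the pair was thus Insig1 in every Control library and Insig2 in every LDL library. The mean log2 ratio was 0.42 ± 0.44 in Control and -1.21 ± 0.19 with LDL (SD, n = 3), a difference of -1.63. An exact permutation test over libraries, two-sided, gave p = 0.1 (p = 0.1 after Benjamini-Hochberg adjustment over the 6 ratio tests). That is the smallest p that 3 against 3 libraries can give, and groups without overlap always give it. The test thus could not pass the threshold used for the genes and adds nothing to the lack of overlap. It took no account of the replicate numbers.

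Scap, the escort (chromosome 9, 110333288 to 110384950, plus strand), was measured at 45.12, 40.51 and 40.04 TPM in Control 1, 2 and 3, and at 45.88, 47.96 and 47.8 TPM in LDL 1, 2 and 3. The LDL libraries lay above Control, with Control 1 close to LDL 1. Of all genes tested 5.61% had groups without overlap in that direction, and the log2 difference of 0.17 (95% CI 0.02 to 0.32) did not pass (limma adjusted p = 0.613). An exon of Scap overlaps 5830462I19Rik on the other strand, and reads of the pair cannot be told apart in libraries that do not mark strand. The ratio of Srebf2 to Scap, cargo to escort, was 1.21, 1.13 and 1.07 in Control 1, 2 and 3, and 0.562, 0.523 and 0.465 in LDL 1, 2 and 3. The mean log2 ratio was 0.18 ± 0.09 in Control and -0.96 ± 0.14 with LDL (SD, n = 3), a difference of -1.14. The exact permutation test gave p = 0.1, again the only value it can give for groups without overlap.

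The proteases that cut SREBP2 did not pass. Mbtps1 (chromosome 8, 119508156 to 119558735, minus strand) was measured at 76.78, 75.5 and 72.75 TPM in Control 1, 2 and 3, and at 74.2, 78.93 and 77.28 TPM in LDL 1, 2 and 3. These groups overlapped, and the interval of the log2 difference ran from -0.12 to 0.18 around 0.03 (limma adjusted p = 1). Mbtps2 (chromosome X, 157535371 to 157598715, minus strand) was measured at 22.62, 17.35 and 26.23 TPM in Control 1, 2 and 3, and at 23.28, 18.96 and 20.89 TPM in LDL 1, 2 and 3. It was lowest in library 2 of each treatment, and the interval of its log2 difference was -0.37 to 0.26 around -0.05 (limma adjusted p = 1). An exon of Mbtps2 overlaps Yy2 on the same strand, so these genes may share reads.

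Mylip, the ligase downstream of LXR (chromosome 13, 45389742 to 45412022, plus strand), was measured at 5.43, 4.35 and 4.69 TPM in Control 1, 2 and 3, and at 4.87, 4.55 and 5.18 TPM in LDL 1, 2 and 3. The groups overlapped fully, and the log2 difference was 0.01 (95% CI -0.31 to 0.34, limma adjusted p = 1).

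**Figure D2:**
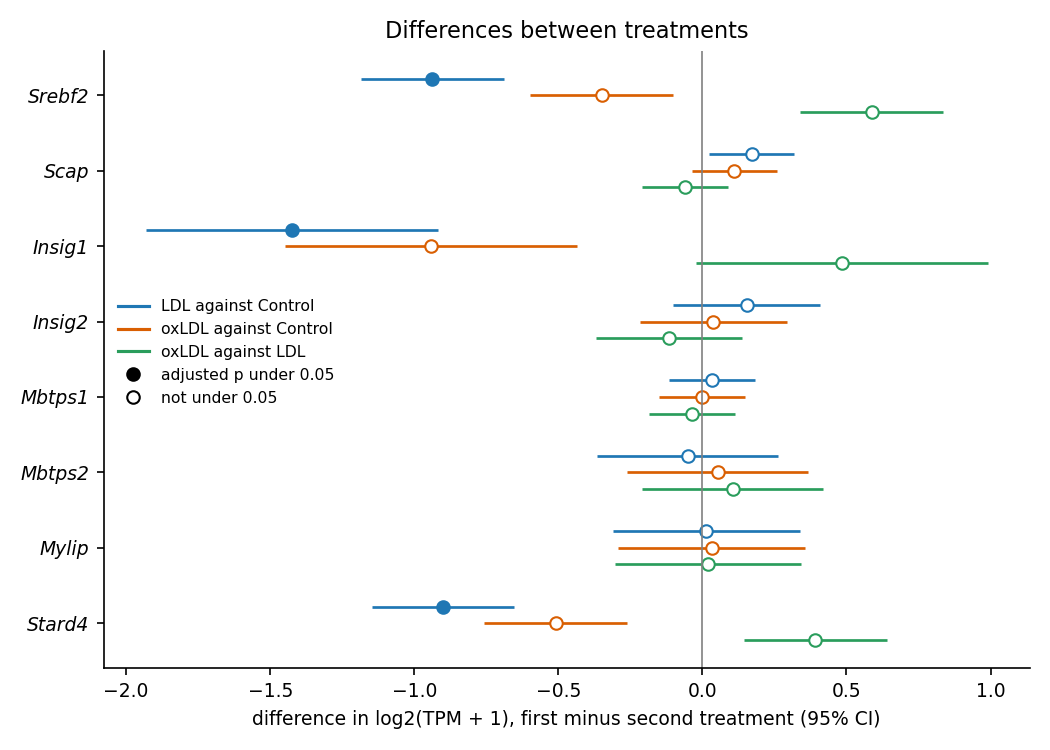
Differences in log2(TPM + 1) between treatments for the 8 genes, first minus second treatment as named, with 95% confidence intervals from limma. Filled points mark an adjusted p under 0.05, which holds for Srebf2, Insig1 and Stard4 with LDL against Control. The 5 other genes lie near 0 in all 3 comparisons.

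The comparison of oxLDL with Control asks the same of the oxidised lipoprotein, and shares its Control libraries with the comparison above. By limma 0 of the 8 genes passed, beside 0.0148% of all genes in either direction, and 3 (Srebf2, Insig1 and Stard4) had an unadjusted p under 0.05, as did 3.86% of all genes. With the replicate block it was also 0 of 8, beside 0.126% of all genes, with 0.0667% called lower and 0.0593% called higher. Without the block, 0 of the 13495 genes tested were called lower. Srebf2 was measured at 41.35, 35.61 and 34.48 TPM in oxLDL 1, 2 and 3, against 42.8 to 54.47 TPM in Control. The oxLDL libraries lay below Control by a small margin, and the log2 difference was -0.35 (95% CI -0.60 to -0.10, limma adjusted p = 1, and 0.123 with the block). Insig1 was measured at 37.01, 23.94 and 25.57 TPM in oxLDL 1, 2 and 3. Its oxLDL 1 library stood above the other oxLDL libraries, as Control 1 did in Control, and all 3 lay below the Control range of 43.09 to 78.13 TPM. The log2 difference was -0.94 (95% CI -1.45 to -0.44, limma adjusted p = 0.678, and 0.0521 with the block). Stard4 was measured at 18.69, 18.67 and 15.52 TPM in oxLDL 1, 2 and 3, all below the Control range of 22.69 to 28.99 TPM. Its log2 difference was -0.51 (95% CI -0.76 to -0.26, limma adjusted p = 0.511, and 0.208 with the block). Groups without overlap in this direction made up 3.83% of all genes tested.

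The other 5 genes had log2 differences between -0.002 and 0.11 with oxLDL and overlapped Control, while 3.5% of all genes had oxLDL groups wholly above Control. Scap was measured at 45.61, 45.67 and 44.48 TPM in oxLDL 1, 2 and 3, and its log2 difference was 0.11 (95% CI -0.04 to 0.26). Insig2 spread widely, at 44.15, 34.95 and 49.41 TPM in oxLDL 1, 2 and 3, so that oxLDL libraries lay on both sides of Control. Mbtps1 was measured at 74.55, 70.13 and 80.31 TPM in oxLDL 1, 2 and 3. Mbtps2 was measured at 23.12, 21.58 and 23.23 TPM, and Mylip at 4.95, 3.98 and 6.06 TPM, in the same libraries. For Insig2, Mbtps1 and Mylip, oxLDL 2 was the lowest and oxLDL 3 the highest of the 3 oxLDL libraries. The ratio of Insig1 to Insig2 was 0.838, 0.685 and 0.517 in oxLDL 1, 2 and 3, below 1 in each. Its mean log2 value was -0.58 ± 0.35 (SD, n = 3) and differed from Control by -1.01. The ratios did not overlap those of Control, so the exact permutation test could give only p = 0.1.

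The comparison of oxLDL with LDL asks whether oxidation alters the response, and was tested directly. By limma 0 of the 8 genes passed, beside 0.104% of all genes in either direction and 0.0371% higher with oxLDL, and 2 (Srebf2 and Stard4) had an unadjusted p under 0.05, as did 3.91% of all genes. Groups without overlap, oxLDL above LDL, were found for Srebf2, Insig1 and Stard4 and for 4.11% of all genes. Srebf2 averaged 37.15 ± 3.68 TPM with oxLDL and 24.37 ± 1.89 TPM with LDL (SD, n = 3), a 1.52-fold higher level, and the lowest oxLDL library (34.48 TPM) lay above the highest LDL library (25.8 TPM). The log2 difference was 0.59 (95% CI 0.34 to 0.84, limma adjusted p = 0.203). With the replicate block it passed (adjusted p = 0.0184), as the 1 of the 8 genes to do so, beside 0.259% of all genes in either direction and 0.119% that were higher. Stard4 was 1.34-fold higher with oxLDL (17.63 ± 1.82 against 13.16 ± 0.67 TPM, SD, n = 3; log2 difference 0.39, 95% CI 0.14 to 0.64, limma adjusted p = 0.648). Insig1 was 1.44-fold higher (28.84 ± 7.12 against 20.02 ± 1.81 TPM, SD, n = 3), and its log2 difference of 0.48 (95% CI -0.02 to 0.99, limma adjusted p = 1) was 0.30 without oxLDL 1. Neither Stard4 nor Insig1 passed with the block (adjusted p = 0.298 and 0.251).

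For Insig2, Scap, Mbtps1, Mbtps2 and Mylip the intervals of oxLDL minus LDL all included 0, with log2 differences between -0.12 and 0.11. Scap was slightly lower with oxLDL in every library (44.48 to 45.67 against 45.88 to 47.96 TPM), a log2 difference of -0.06 that did not pass (limma adjusted p = 1), and 4.2% of all genes had groups without overlap in that direction. The ratio of Insig1 to Insig2 lay above the LDL values in all 3 oxLDL libraries, by 0.62 on the log2 scale. That of Srebf2 to Scap was 0.907, 0.78 and 0.775 in oxLDL 1, 2 and 3, also above LDL, by 0.67. Both gave p = 0.1 in the exact permutation test, the only value it can give for groups without overlap.

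**Figure D3:**
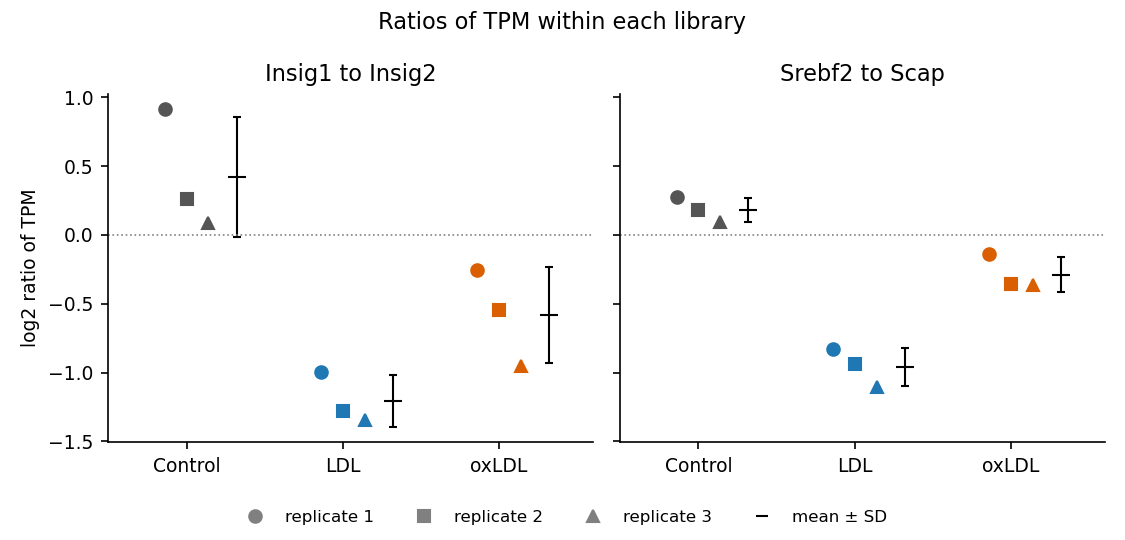
Log2 ratio of TPM within each library for Insig1 to Insig2 and for Srebf2 to Scap, by treatment, with the mean ± SD of the 3 libraries to the right of each group. The dotted line marks equal TPM: both ratios lie above it in all 3 Control libraries and below it in all LDL and oxLDL libraries.

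Srebf2, Insig1 and Stard4 thus had the same order of levels: every Control library lay above every oxLDL library, and every oxLDL library above every LDL library. This held for 3 of the 8 genes and for 0.326% of all genes tested (44 of 13495). The 8 genes were chosen with earlier results of these data known, so these shares are not a test of the set. By limma without the block, no difference of oxLDL from Control or from LDL passed for these 3 genes. They differed in how the 3 libraries of a treatment spread. The SD of Insig1 was 32.4% of its mean in Control, 9.03% with LDL and 24.7% with oxLDL, while that of Srebf2 was 12.7, 7.77 and 9.92% and that of Stard4 was 12.5, 5.07 and 10.4% in the same order. For Srebf2 and Insig1, library 1 was the highest of each treatment. For Stard4, library 1 was the highest in Control and the lowest with LDL.

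Genes with the most similar patterns were ranked by the root mean square difference of log2(TPM + 1), each gene centred on its mean, over the 9 libraries. For Insig1 the closest were Cyp51 (0.0969), Hmgcs1 (0.122), Sqle (0.146), Msmo1 (0.151) and Fdps (0.158), all enzymes of cholesterol synthesis, where a gene of constant level would give 0.648. For Srebf2 they were the sterol enzymes Sc5d (0.123) and Dhcr7 (0.125), the mevalonate kinase Mvk (0.125), Stard4 (0.134) and the acyl-CoA synthetase Acsl3 (0.134), with 0.404 for constant level. For Stard4 they included the fatty acid elongase Elovl6 (0.0651), Sc5d (0.098), Srebf2 (0.134) and Acsl3 (0.137), with 0.385 for constant level. The 9 libraries hold the 3 treatments, so genes that respond to LDL in a like degree come out as similar.

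Other genes of the pathway were read from 7 lists of proteins that act with the 8 genes, 91 of whose 92 genes were tested. With LDL against Control 0 of the 91 passed by limma, beside 0.333% of all genes, and 1 had an unadjusted p under 0.05, beside 6.65% of all genes. Their log2 differences lay between -0.48 and 0.26. The gene with the unadjusted p under 0.05 was Srebf1, which encodes the sister factor SREBP1, at 50.62 ± 1.69 TPM with LDL and 71.29 ± 7.3 TPM in Control (SD, n = 3; log2 difference -0.48, limma adjusted p = 0.0707). Srebf1 fell with the replicate block (limma adjusted p = 0.0345), the 1 of the 91 to pass there, beside 0.852% of all genes in either direction. In the list of 21 SREBP and INSIG partners, which also holds the ubiquitin ligases Rnf139 and Rnf145, 13 had higher and 8 lower means, with a median of 0.01. The 10 COPII carrier genes had a median of 0.06, with Sec31a of the coat at 270.9 ± 8.79 against 256.9 ± 2.87 TPM (SD, n = 3; limma adjusted p = 0.972).

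The 8 DNA-binding partners and coactivators of SREBP had a median log2 difference of -0.03 with LDL, and Nfyb, a subunit of the CCAAT-binding factor NF-Y, differed by -0.15 (limma adjusted p = 0.986). The 12 LXR receptors and partners around Mylip had a median of 0.04, and Usp2, a deubiquitinase that acts on MYLIP, differed by -0.29 (limma adjusted p = 0.854). The 12 endocytic adaptors and sorters had a median of -0.06, with Rnf130, a ubiquitin ligase, at 0.14 (limma adjusted p = 0.935). The list of 22 intracellular cholesterol carriers, without Stard4, also holds enzymes, Nceh1 among them. Its genes had a median of -0.02 and ran from -0.18 to 0.26. The smallest p in that list was that of Nceh1, a cholesteryl ester hydrolase (log2 difference 0.26, limma adjusted p = 0.865). Of the other proteins cut by the site-1 protease, the site-2 protease or both, 6 were tested, with a median of 0.04, and Gnptab, of the lysosomal targeting pathway, differed by -0.12 (limma adjusted p = 0.915).

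By contrast, of 19 enzymes of cholesterol synthesis, the textbook targets of SREBP2, 11 fell with LDL, beside 0.156% of all genes, and 17 with the block, beside 0.415%. This list too was chosen with earlier results of these data known, so the shares are not a test of it. All 19 had lower means. Their median log2 change was -1, beside -0.94 for Srebf2, -0.90 for Stard4 and -1.43 for Insig1. Sqle, the squalene epoxidase, changed by -1.37 (limma adjusted p = 0.0103), Hmgcs1, the HMG-CoA synthase, by -1.36 (limma adjusted p = 0.0103) and Idi1, an isoprenoid isomerase, by -1.84 (limma adjusted p = 0.0202). Without LDL 2 or LDL 3 the adjusted p was 0.0587 and 0.0579 for Sqle and 0.0636 and 0.0579 for Hmgcs1, and it was 0.0518 for Hmgcs1 in the 6 compared libraries. Idi1 lost its call in 7 of 18 alternatives, with an adjusted p of 0.0737 and 0.0843 without Control 1 or 2, 0.0505, 0.0974 and 0.11 without LDL 1, 2 or 3, 0.0611 with no filter and 0.0518 in the 6 compared libraries. With oxLDL against Control 0 of the 19 enzymes passed by limma, and 17 had an unadjusted p under 0.05, beside 3.86% of all genes. With the block 7 fell, beside 0.0667% of all genes, and the median log2 difference was -0.70. Hmgcs1 differed by -0.92 (limma adjusted p = 0.219, and 0.00841 with the block).

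**Figure D4:**
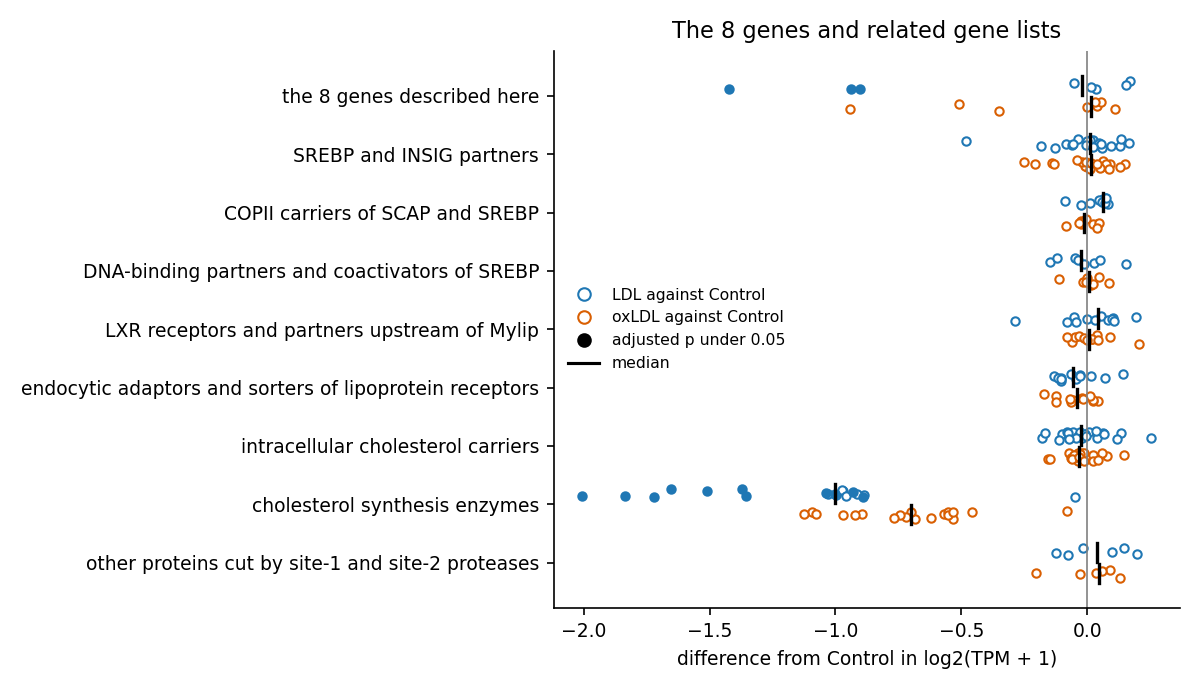
Differences from Control in log2(TPM + 1) for the 8 genes and for each tested gene of the related lists, with LDL (blue) and oxLDL (orange). Filled points passed the test and black bars are medians. The cholesterol synthesis enzymes lie at a median of -1 with LDL, while the medians of the other lists lie near 0.

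With oxLDL against Control, 0 of the 91 genes of the 7 other lists passed by limma (2 had an unadjusted p under 0.05, beside 3.86% of all genes), and 0 with the block. Their log2 differences lay between -0.25 and 0.21. The 2 were Rnf145, at -0.21, and Creb3, a membrane-bound factor cut by the same proteases, at -0.20 (limma adjusted p = 1 for both). The smallest p in each of the remaining lists belonged to Sar1a (-0.08), the GTPase that starts the COPII coat, Med15 (0.09), a Mediator subunit, Usp2 (0.21), Snx17 (-0.12), an endosomal sorting nexin, and Osbpl1a (-0.16), an oxysterol-binding protein, none of which passed.

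With oxLDL against LDL, 0 of the 91 passed by limma (3 had an unadjusted p under 0.05, beside 3.91% of all genes), and 0 with the block. Srebf1 was 1.28-fold higher with oxLDL (log2 difference 0.35, limma adjusted p = 0.494) and Usp2 1.49-fold higher (0.49, limma adjusted p = 0.791). The other one was Rnf145, named after its values were seen, at -0.25 (limma adjusted p = 0.847). Differences of Sec31a (-0.11), Nfyb (0.16), Snx17 (-0.10), Gnptab (0.16) and Gramd1c (0.26), a sterol transfer protein, did not pass either (limma adjusted p = 1 for each). Of the synthesis enzymes 0 passed in limma and 10 had an unadjusted p under 0.05, while 5 rose with the block, beside 0.119% of all genes, among them Sqle (log2 difference 0.61, limma adjusted p = 0.494, and 0.0439 with the block).

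**Figure D5:**
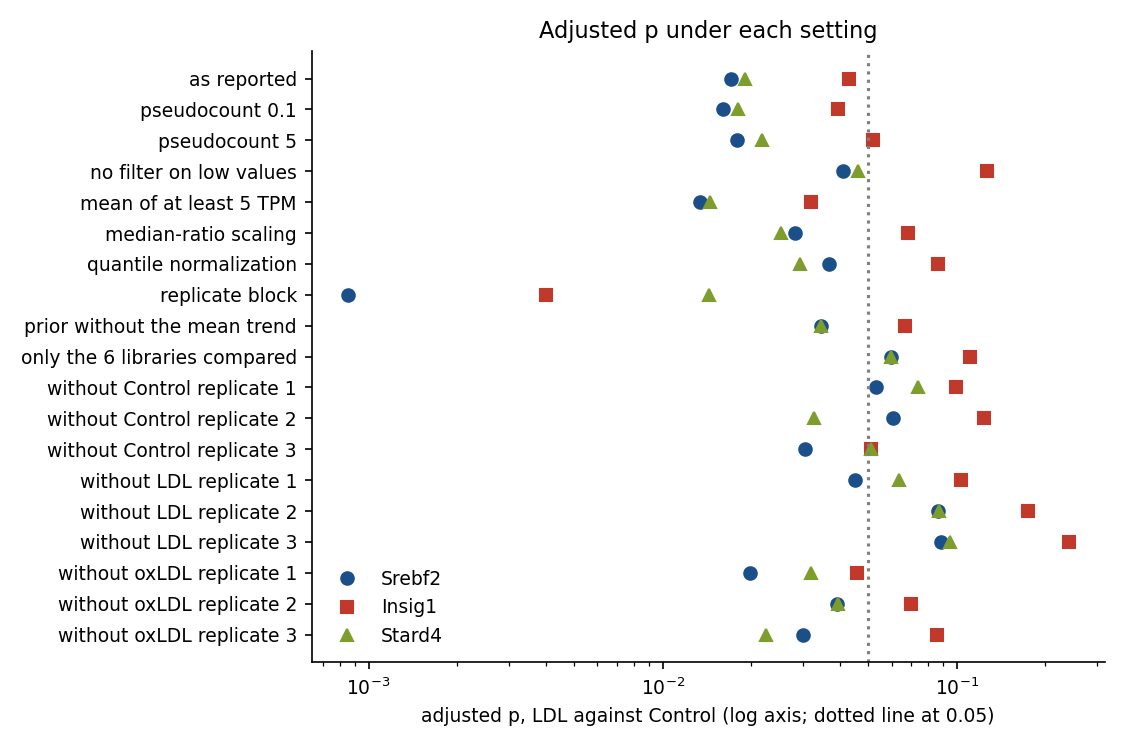
Adjusted p of Srebf2, Insig1 and Stard4 for LDL against Control, as reported and under each of 18 alternatives (log axis, dotted line at 0.05). Points to the right of the line lost the call: Insig1 did so in 14 alternatives, Stard4 in 6 and Srebf2 in 5.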

How the data were processed

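From 50 ng RNA per sample, cDNA was amplified, prepared without strand marks and sequenced as 100 bp pairs, per the labels' protocols. The authors deposited TPM values for 9 libraries, one column each, summing to 999998.81 to 1000000.43, and 0 columns were left out. The submitters' processing notes name STAR (no version), RSEM 1.3.1 and mm10. Which annotation was used is not stated. TPM keeps no depth, so precision comes from the spread between libraries, 3 for each treatment, which the fit pools over the 3 treatments.

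The 13495 genes that averaged 1 TPM or more (38315 were left out) were analysed as log2(TPM + 1), a scale that understates the change of low genes, with limma 3.58.1 in R 4.3.3 (trended prior, all 9 libraries in one fit, 6 residual degrees of freedom), checked on simulated data. Replicate numbers come from the titles. Deviations from group means correlated at 0.172 to 0.497 in the 9 same-numbered pairs and at -0.309 to 0.13 in the 18 others, so the numbers pair the libraries by this check, and the fit with them as a block (4 residual degrees of freedom) is given where it changes a call. The 8 genes and the gene lists were chosen with earlier results of these data known. All 8 are named in each comparison, and from each list up to 3 called genes or the 1 with the smallest p. The 5 genes of most similar pattern were named for Srebf2, Insig1 and Stard4, without clone-named models and pseudogenes. 1 gene selected by this rule is not reported here. Gene positions were looked up by symbol in GENCODE M21 on GRCm38, where 91.9% of all symbols were found.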

Additional observations from a re-analysis of the deposited data

How the results depend on the processing

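Of the 429 values of the 8 genes under the alternatives, 385 kept their direction and side of the threshold, 25 lost a call (Srebf2, Insig1 and Stard4 with LDL against Control), 1 gained it (Srebf2 with oxLDL against LDL, replicate block) and 18 changed sign, all for genes with differences near 0. Mylip has no value at a mean of at least 5 TPM, where it was not tested.

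The 3 called genes of LDL against Control were 0 in the 6 compared libraries, and 0 to 3 when a library was left out: 0 without Control 1, LDL 2 or LDL 3, and 1 without Control 2, Control 3 or LDL 1. Srebf2 and Stard4 kept their calls under each change of pseudocount, filter, scaling and prior, and Insig1 lost its call in several of them. In oxLDL against LDL the count was 0 and became 1 with the replicate block, the adjusted p of Srebf2 being 0.0184. With the block the other calls of the 8 genes did not change.

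Over all genes, LDL against Control gave 45 calls, 19 with no filter, 115 with the replicate block, 9 in the 6 compared libraries, and 4 to 37 when a library was left out. The oxLDL against Control comparison gave 2, and 1 with a pseudocount of 5, without the mean trend or in the 6 compared libraries, 10 with no filter, 17 with the block, and 1 to 3 when a library was left out. The oxLDL against LDL comparison gave 14, 8 with no filter or without the mean trend, 35 with the block, 6 in the 6 compared libraries, and 1 to 10 when a library was left out.

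Signs changed as follows. Mbtps1 with oxLDL against Control was 0.002 with median-ratio scaling and -0.052 to 0.045 when a library was left out, and with oxLDL against LDL -0.085 to 0.011. Mbtps2 was -0.207 to 0.078 (LDL against Control) and -0.102 to 0.183 (oxLDL against Control). Mylip was -0.045 to 0.087, -0.093 to 0.159 and -0.107 to 0.145 for LDL and for oxLDL against Control and for oxLDL against LDL, in turn. Insig2 was -0.07 to 0.174 (oxLDL against Control) and -0.224 to 0.02 (oxLDL against LDL). The cause of these changes was not tested. With 2 libraries left in a group, fewer samples are compared. Depth is unknown, so its limit on any of the 8 genes cannot be given.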
